A study of Homo sapiens with 5 samples.

Results

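The 78 genes described here encode mitochondrial ribosomal proteins, the nuclear-encoded proteins of the ribosome that works inside mitochondria. They were taken by symbol: protein-coding human genes whose name begins with MRPL (large subunit, 49 genes) or MRPS (small subunit, 29 genes) followed by a number, with at least 10 estimated counts summed over the 5 libraries. These were 78 of the 65217 gene identifiers in the deposited gene table, and 0 genes of the name pattern fell below the count minimum. The cells were REH, an established human B cell precursor acute lymphoblastic leukaemia line carrying the ETV6-RUNX1 (TEL-AML1) fusion, grown in NSG mice (NOD.Cg-PrkdcscidIl2rgtm1Wjl/SzJ), which lack their own B, T and NK cells. The brain group held cells recovered from the leptomeninges (3 libraries) and the spleen group held cells recovered from the spleen (2 libraries). All mice were 6 to 10 weeks old, received the same cell line with no further treatment named, and each library held RNA combined from 5 mice on 1 of 3 separate occasions; the third spleen pool was withdrawn by the submitters for quality. The comparison sets leukaemia cells from the lining of the brain against those from a peripheral organ, and it rests on 1 cell line.

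Mitochondrial ribosomes translate the few mRNAs of the mitochondrial genome, all of which encode subunits of the respiratory chain complexes and of ATP synthase. The small subunit reads the mRNA, and the large subunit joins the amino acids and sits on the inner membrane, where the hydrophobic products are inserted. Some of their proteins descend from those of bacterial ribosomes and others have no bacterial counterpart, but the human ones are all made in the cytosol from nuclear genes and imported.

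The libraries held between 38387991 and 48764202 estimated counts on human genes, of which 978914 over all libraries fell on the 78 genes. Reads assigned to mouse made up 2.58 to 5.70% of each brain library and 6.33 to 8.87% of each spleen library. The summed CPM (counts relative to TMM-scaled library size) of 10 precursor B cell markers was 7781 to 7812 in brain and 8040 to 8270 in spleen libraries, with VPREB1 listed at 0. The 8 neural and stromal markers summed to 29.1 to 34.5 CPM in brain and 14.2 to 15.4 CPM in spleen (SNAP25 at 0), and the 6 myeloid markers to 28.5 to 39.4 CPM in brain and 18.4 to 22.9 CPM in spleen. T cell markers summed to at most 0.743 CPM in brain and 0.524 CPM in spleen (CD3D at 0), and erythroid markers to at most 0.467 CPM in brain and 0.575 CPM in spleen. The part of the mouse share and of these markers in the results below was not tested. A fit with mouse share as a covariate was run, but mouse share did not overlap between the groups. That fit cannot tell mouse share from site. For the 78 genes, spleen replicate 1 stood apart from the other libraries, so results are also given without it. In bulk RNA, a lower share of cells that express these genes and less of their RNA per cell cannot be told apart.

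In leukaemia cells from brain, 21 of the 78 mitochondrial ribosomal protein genes were lower than in cells from spleen and 0 were higher, by the quasi-likelihood test of edgeR with Benjamini-Hochberg adjustment over 20419 genes at 0.05. Those 21 are 26.9% of the group, where 3.50% of all genes tested were lower and 6.01% higher, and where 5.65% of the 7982 genes in the same abundance range were lower. The other 57 genes were not past the threshold. At an unadjusted p below 0.05, 45 were lower and 1 was higher, against 11.3% and 14.2% of all genes tested. DESeq2 called 31 lower (against 7.29% of all genes it tested) and 0 higher. With no filter on low counts, edgeR called 39 lower, against 3.46%. Across the group the median log2 fold change was -0.34, with an interquartile range of -0.46 to -0.14, against 0.0066 for all genes tested, and 69 of the 78 estimates were negative. Every brain library lay below every spleen library in 47 genes (60.3% of the group, against 19.5% of all genes tested), and above in 2 genes, MRPL45 and MRPS30 (2.56%, against 23.3%).

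The large subunit held 17 of the 21 lower genes. MRPL40, a large subunit protein with no bacterial counterpart, measured 18.5, 19.3 and 21.2 CPM in the brain libraries, against 38.8 and 30.6 CPM in the spleen libraries. The groups were well apart, and the log2 fold change was -0.82 (SE 0.13, edgeR adjusted p = 0.00687). MRPL39, likewise without a bacterial counterpart, measured 35.5, 32.8 and 36.4 CPM in brain, against 52.3 and 50.8 CPM in spleen. Its spleen values agreed closely, and its log2 fold change was -0.56 (SE 0.10, edgeR adjusted p = 0.0102). MRPL40 lies at chr22:19432545-19436075 on the plus strand (ENSG00000185608) and MRPL39 at chr21:25585656-25607517 on the minus strand (ENSG00000154719), in GRCh38 coordinates.

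The next 4 large subunit genes by p had the same arrangement. MRPL20, a homologue of a bacterial ribosomal protein, measured 54.3, 51.5 and 59.6 CPM in brain, against 94.2 and 79.0 CPM in spleen (log2 fold change -0.65, SE 0.11, edgeR adjusted p = 0.0103). MRPL21, also of bacterial descent, measured 39.5, 39.0 and 39.5 CPM in brain, against 63.7 and 53.5 CPM in spleen (log2 fold change -0.58, SE 0.10, edgeR adjusted p = 0.0125). The brain libraries were nearly equal for MRPL21, and for both genes the lowest spleen value stood clear of the highest brain value. MRPL58, a peptidyl-tRNA hydrolase that is built into the large subunit and can release stalled chains, measured 14.9, 15.7 and 16.2 CPM in brain, against 26.6 and 22.2 CPM in spleen (log2 fold change -0.64, SE 0.12, edgeR adjusted p = 0.0137). MRPL52, which has no bacterial counterpart, measured 48.4, 47.3 and 52.9 CPM in brain, against 89.5 and 67.1 CPM in spleen (log2 fold change -0.66, SE 0.13, edgeR adjusted p = 0.0172).

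The fold changes of MRPL12 and MRPL28 also depended on which spleen library was read. MRPL12, the stalk protein at which translation factors dock, measured 71.4, 67.9 and 74.7 CPM in brain, against 142.6 and 92.0 CPM in spleen. Its log2 fold change was -0.72 (SE 0.16, edgeR adjusted p = 0.0295), and without spleen replicate 1 it was -0.38. MRPL28 measured 99.98, 102.6 and 112.8 CPM in brain, against 177.2 and 131.7 CPM in spleen (log2 fold change -0.55, SE 0.13, edgeR adjusted p = 0.0351), and -0.33 without spleen replicate 1. For both genes the first spleen library was far above the second, and both spleen libraries were above all brain libraries. MRPL52 moved much as MRPL28 did, from -0.66 with all libraries to -0.45 without spleen replicate 1. The other 9 lower large subunit genes, named here because they complete the count, were MRPL24, MRPL55, MRPL23, MRPL4, MRPL3, MRPL2, MRPL35, MRPL38 and MRPL41.

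Other large subunit genes were not past the threshold. MRPL51 was among the most abundant and measured 85.1, 79.996 and 106.0 CPM in brain, against 130.1 and 100.2 CPM in spleen. The highest brain library lay above the lower spleen library (log2 fold change -0.35, edgeR adjusted p = 0.188). MRPL45, which tethers the large subunit to the inner membrane, measured 61.3, 61.1 and 75.8 CPM in brain, against 60.9 and 50.6 CPM in spleen (log2 fold change 0.25, edgeR adjusted p = 0.283). MRPL44, whose fold resembles RNase III, stood at 0.16 on the log2 scale (edgeR adjusted p = 0.426), and MRPL30, a homologue of a bacterial protein, at 0.11 (edgeR adjusted p = 0.640). MRPL45, MRPL44 and MRPL30 had the highest fold changes of the large subunit, and none of them passed the threshold.

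In the small subunit, 4 of 29 genes were lower in brain and 0 higher. MRPS34, a protein without bacterial counterpart that stabilises the small subunit rRNA in mice, measured 81.8, 73.3 and 86.0 CPM in brain, against 161.1 and 120.2 CPM in spleen. No brain library came near a spleen library, and the log2 fold change was -0.81 (SE 0.14, edgeR adjusted p = 0.00955), close in size to that of MRPL40. MRPS34 lies at chr16:1771890-1773150 on the minus strand (ENSG00000074071), and its exons share 341 bases with EME2 on the opposite strand.

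MRPS11 and MRPS7, both homologues of bacterial proteins, were the next. MRPS11 measured 33.9, 34.01 and 37.1 CPM in brain, against 52.0 and 44.5 CPM in spleen (log2 fold change -0.46, SE 0.11, edgeR adjusted p = 0.0320). MRPS7 measured 55.2, 49.04 and 59.2 CPM in brain, against 83.9 and 70.0 CPM in spleen (log2 fold change -0.50, SE 0.12, edgeR adjusted p = 0.0340). MRPS26, which has no bacterial counterpart, measured 49.04, 48.4 and 53.1 CPM in brain, against 69.8 and 61.8 CPM in spleen (log2 fold change -0.39, SE 0.10, edgeR adjusted p = 0.0437). In all 4 called genes of the small subunit the groups did not overlap. MRPS23 and MRPS9 stood just outside the threshold, with log2 fold changes of -0.50 (edgeR adjusted p = 0.0520) and -0.41 (edgeR adjusted p = 0.0522).

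Abundant small subunit genes did not all follow MRPS34. MRPS15, a homologue of a bacterial protein, measured 96.6, 89.9 and 100.5 CPM in brain, against 104.0 and 83.8 CPM in spleen (log2 fold change 0.03, edgeR adjusted p = 0.918). MRPS6 measured 63.0, 66.2 and 85.8 CPM in brain, against 102.2 and 69.5 CPM in spleen (log2 fold change -0.26, edgeR adjusted p = 0.417). In both genes the brain and spleen values overlapped, and the 2 spleen libraries lay further apart than the group means. MRPS5, also of bacterial descent, stood at 0.05 on the log2 scale (edgeR adjusted p = 0.810). MRPS36, which is now known as a component of the 2-oxoglutarate dehydrogenase complex and is absent from ribosome structures, stood at 0.05 as well (edgeR adjusted p = 0.858).

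MRPS30 was the small-subunit name with the highest fold change. It measured 46.9, 41.1 and 48.4 CPM in brain, against 39.5 and 35.1 CPM in spleen, so that every brain library was above every spleen library. The log2 fold change was 0.29 (SE 0.11, edgeR adjusted p = 0.149). Structures place this protein in the large subunit despite its name, as they do MRPS18A.

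**Figure D1:**
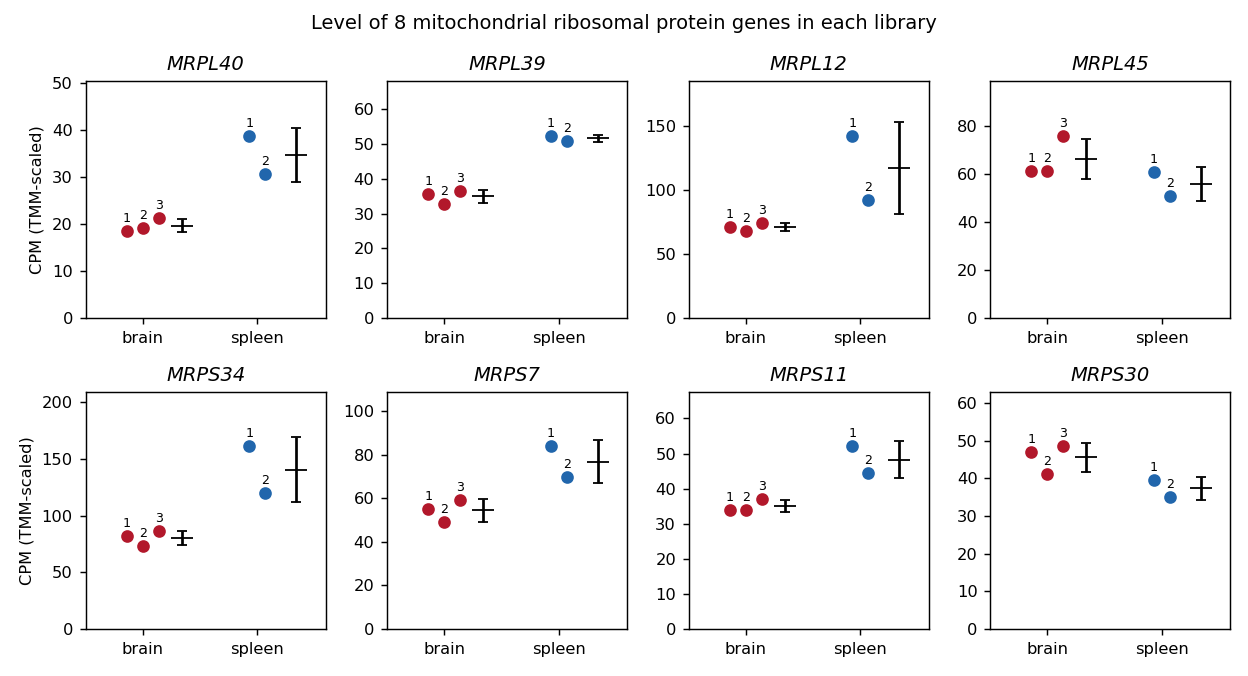
CPM (vertical axis, from 0) of 8 mitochondrial ribosomal protein genes in each brain library (red) and spleen library (blue), numbered by replicate, with bars for mean ± SD. For MRPL40 and MRPS34 the brain values, 18.5 to 21.2 CPM and 73.3 to 86.0 CPM, lie below both spleen values, while for MRPS30 they lie above.

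**Figure D2:**
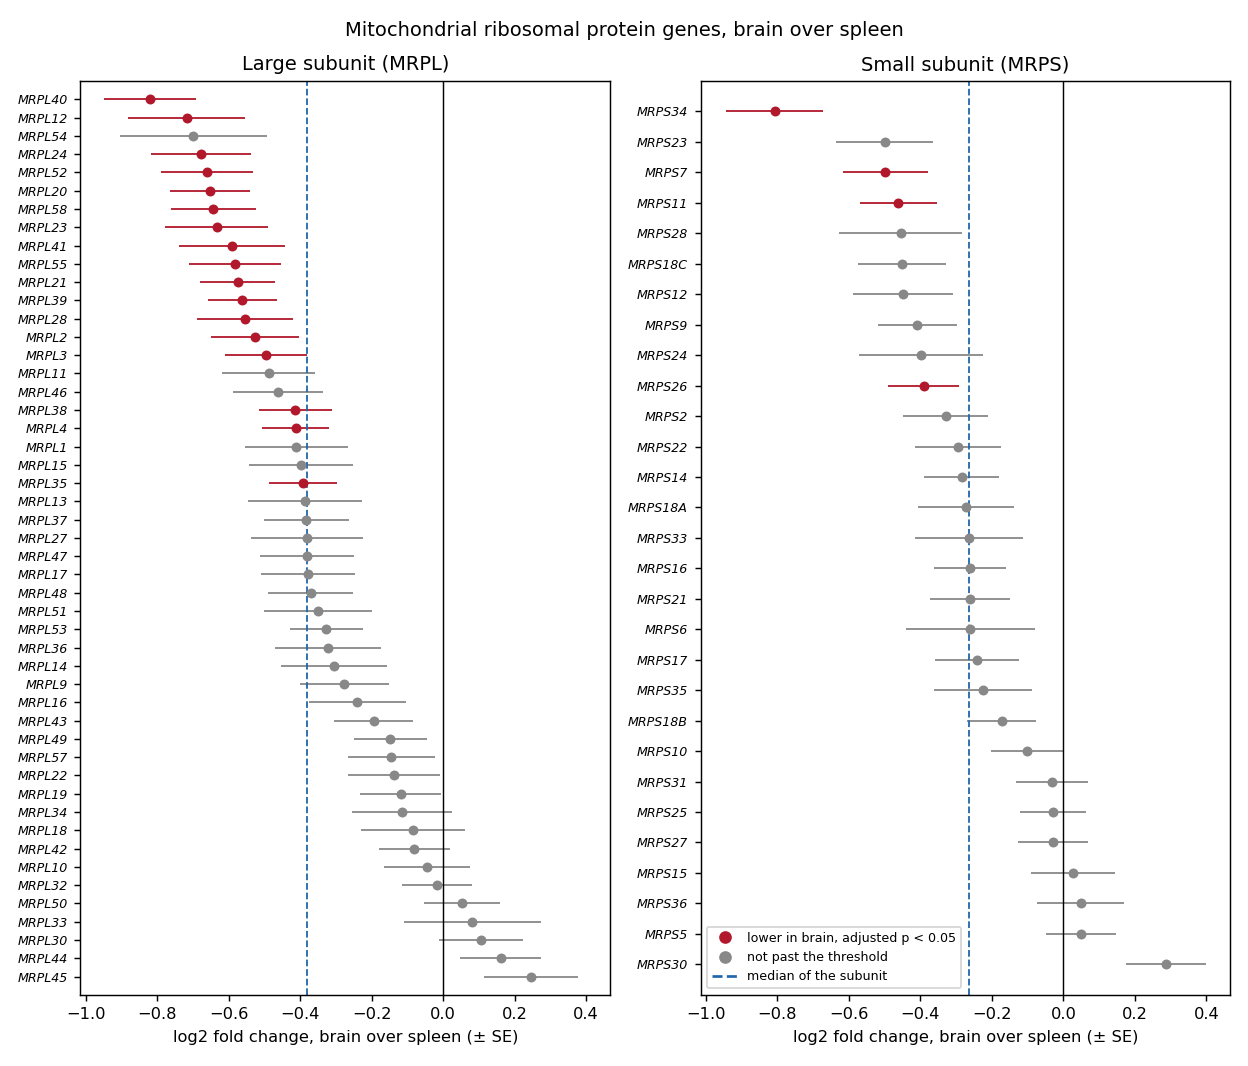
Log2 fold change (brain over spleen) of each of the 49 MRPL and 29 MRPS genes, with bars of 1 standard error, red points for genes past the threshold, grey points for the others and a dashed line at the subunit's median. Most estimates lie left of 0, and all 21 genes past the threshold do.

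The promoters of 69 of the 78 genes were found in the RefSeq table (GRCh38.p14), and 4 are printed: those of the called gene with the smallest p in each subunit (MRPL40, MRPS34), of the stalk protein MRPL12, and of MRPS30, which had the highest log2 fold change of all 78 genes (0.29, not past the threshold). Each line runs 5′ to 3′ on the gene's strand from 250 bases before the annotated start to 30 bases after it. Capitals mark the motifs searched on both strands: CCGGAAG, the core bound by ETS factors such as GABP, AAGATGG, the core bound by YY1, and GCGCATG, part of the palindromic site of NRF1. The windows are chr22:19432295-19432574 (plus strand) for MRPL40, chr16:1773105-1773384 (minus strand) for MRPS34, chr17:81703117-81703396 (plus strand) for MRPL12 and chr5:44808697-44808976 (plus strand) for MRPS30.
MRPL40: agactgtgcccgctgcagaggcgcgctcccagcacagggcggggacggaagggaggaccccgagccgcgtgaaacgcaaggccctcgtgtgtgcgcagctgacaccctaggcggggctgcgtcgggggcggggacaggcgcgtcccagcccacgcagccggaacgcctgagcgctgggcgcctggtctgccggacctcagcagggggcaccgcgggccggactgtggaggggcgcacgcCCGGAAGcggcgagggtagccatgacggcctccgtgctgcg
MRPS34: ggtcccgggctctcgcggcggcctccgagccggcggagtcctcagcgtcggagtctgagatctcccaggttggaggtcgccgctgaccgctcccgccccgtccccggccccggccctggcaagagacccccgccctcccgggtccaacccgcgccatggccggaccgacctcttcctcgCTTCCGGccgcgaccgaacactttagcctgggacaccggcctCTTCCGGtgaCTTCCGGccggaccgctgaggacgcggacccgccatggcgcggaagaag
MRPL12: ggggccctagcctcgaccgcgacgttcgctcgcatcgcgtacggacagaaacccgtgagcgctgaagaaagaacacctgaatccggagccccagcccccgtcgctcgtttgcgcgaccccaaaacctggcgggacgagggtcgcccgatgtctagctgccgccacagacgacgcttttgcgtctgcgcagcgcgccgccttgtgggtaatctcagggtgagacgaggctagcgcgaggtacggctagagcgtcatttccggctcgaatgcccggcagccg
MRPS30: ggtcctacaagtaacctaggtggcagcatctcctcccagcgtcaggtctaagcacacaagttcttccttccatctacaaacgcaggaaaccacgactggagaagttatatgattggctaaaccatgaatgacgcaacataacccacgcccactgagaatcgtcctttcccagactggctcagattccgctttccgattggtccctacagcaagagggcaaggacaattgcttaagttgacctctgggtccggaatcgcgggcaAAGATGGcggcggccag

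MRPL40 held 1 ETS motif just before its start and MRPS34 held 3, all as the reverse complement CTTCCGG. MRPS30 held the YY1 motif just after its start, and the MRPL12 window held none of the 3 motifs. Among the 69 promoters the ETS motif stood in 29 (42.0%), against 17.8% of the 11229 promoters of protein-coding genes tested and 10.3% of all 27305 in the table. The YY1 motif stood in 21 (30.4%), against 6.27% and 5.35%, and the NRF1 motif in 7 (10.1%), against 6.83% and 4.52%. In 0 promoters matches of different motifs shared bases. The ETS motif stood in 17 of 42 large subunit promoters and 12 of 27 small subunit promoters. It stood in 9 of 17 promoters of lower genes and in 20 of 52 of genes not past the threshold, and the YY1 motif in 4 of 17 and 17 of 52. A match describes the letters only and is not a measured binding site.

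The shift was present in both subunits. The median log2 fold change was -0.38 over the 49 MRPL genes and -0.26 over the 29 MRPS genes, a difference of -0.12 between the medians. At the adjusted threshold 34.7% of MRPL and 13.8% of MRPS genes were lower, against 3.50% of all genes tested. Every brain library lay below every spleen library in similar shares, 59.2% of MRPL and 62.1% of MRPS genes, against 19.5% of all genes tested. With MRPS30 and MRPS18A moved to the large subunit, where structures place them, and MRPS36 left out, the medians were -0.38 over 51 genes (17 lower) and -0.27 over 26 (4 lower). By descent, medians were -0.38 over 30 homologues of bacterial proteins and -0.35 over 21 mitochondria-specific proteins in the large subunit, and -0.31 over 16 and -0.24 over 10 in the small. These differences were described and not tested, since genes are not replicates.

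TPM (transcript abundance scaled for length, over human transcripts only) was summed over all annotated transcripts of the genes, coding or not. Protein-coding transcripts held 83.6 to 85.2% of the TPM of the 78 genes in each library. The large subunit genes took 3485, 3535 and 3905 TPM in the brain libraries, against 5275 and 4646 TPM in the spleen libraries. The small subunit genes took 1728, 1744 and 1902 TPM in brain, against 2312 and 2193 TPM in spleen. All brain sums were below both spleen sums in each subunit. Together they were 0.521, 0.528 and 0.581% of the human TPM in brain, against 0.759 and 0.684% in spleen. The ratio of large to small was 2.02, 2.03 and 2.05 in brain, against 2.28 and 2.12 in spleen, which gives 2.03 ± 0.0188 (SD, n = 3) in brain and 2.20 ± 0.116 (SD, n = 2) in spleen. The ratios did not overlap, but the spleen libraries differed from each other by nearly as much as the groups. MRPL55 carried part of this difference, with 74.9, 83.9 and 80.5 TPM in brain, against 332 and 119 TPM in spleen, where its CPM was 32.4, 33.8 and 33.4 in brain, against 57.0 and 42.6 in spleen. Without it, an alternative chosen after seeing the data, the ratio was 1.97, 1.98 and 2.01 in brain, against 2.14 and 2.06 in spleen. With the median TPM of each subunit in place of the sum the means were 1.10 in brain and 1.12 in spleen.

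RNA levels of the genes, again over all their transcripts, varied widely. Mean TPM over the 5 libraries ran between 15.1 and 246, with a median of 68.2. MRPL52 (246 TPM) and MRPL51 (246 TPM) led the large subunit, followed by MRPL28 (178 TPM), and MRPS34 (178 TPM), MRPS15 (146 TPM) and MRPS6 (116 TPM) led the small. Abundance bore no clear relation to the shift, with a Spearman correlation of 0.04 between log2 fold change and log2 CPM across the 78 genes, which are not independent replicates.

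The libraries carried unequal weight. Of the 78 genes, 68 had their highest CPM in spleen replicate 1, and 77 (all but MRPS25) were higher in spleen replicate 1 than in spleen replicate 2. The median log2 ratio between these spleen libraries was 0.27 over the group (0.30 large, 0.23 small), against 0.0037 over all genes tested. Summed CPM of the 78 genes was 3845, 3727 and 4182 in brain, against 5364 and 4380 in spleen. The third brain library lay just under the second spleen library, and the first spleen library lay well above both.

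Leaving out each library in turn kept the direction of the medians and moved the counts. A fit without a spleen library holds only 1 spleen library, so its spread comes from the brain libraries alone. The calls of such a fit describe how that 1 spleen pool differs from brain. Without spleen replicate 1, 4 genes were lower (3 large, 1 small), against 1.36% of all genes tested, and the medians were -0.22 in the large subunit and -0.14 in the small. Without spleen replicate 2, 33 genes were lower (23 large, 10 small), against 3.87%, with medians of -0.52 and -0.41. Without brain replicates 1, 2 and 3 the counts were 3, 5 and 13, against 0.728%, 1.25% and 2.27%. No gene was called higher in any of these fits, in which between 0 and 4 of the genes were higher at an unadjusted p below 0.05 by edgeR, against 11.1 to 13.0% of all genes tested. The number of lower calls among all genes also fell in each of these fits except the one without spleen replicate 2.

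MRPL39, MRPL40 and MRPS34 were called in all 5 of these fits, with highest edgeR adjusted p of 0.0492, 0.0394 and 0.0437. Among these fits MRPL20 was lost only without brain replicate 1 (edgeR adjusted p = 0.0561, and 2.92e-06 to 0.134 over all its alternatives). Over all alternatives the highest edgeR adjusted p was 0.254 for MRPL39, 0.0685 for MRPL40 and 0.123 for MRPS34. Each of these came from the fit with mouse share as a covariate, which cannot tell mouse share from site. The other 17 were lost in 2 or more of the 5 fits, MRPL35 in each of them. Over all 78 genes, 59 kept a negative log2 fold change in every one of the 5 fits. The median log2 fold change of the large subunit stayed below that of the small in each, with a difference of -0.136 to -0.0717.

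**Figure D3:**
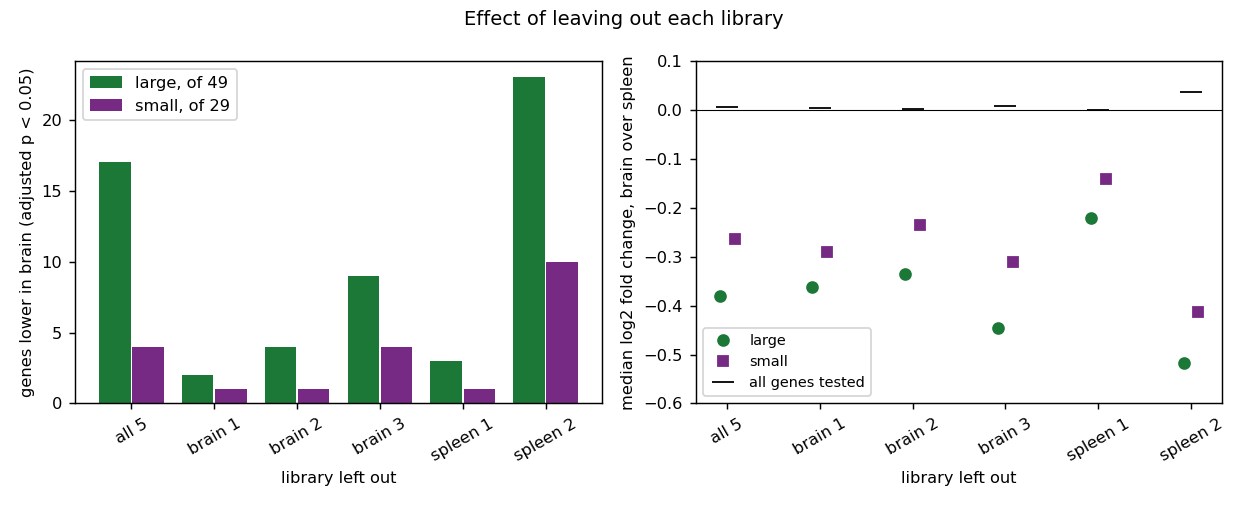
Number of genes lower in brain (bars) and median log2 fold change, brain over spleen (points), by subunit, in the fit of all 5 libraries and with each library left out. Where a spleen library is left out, the spleen group is 1 library. Summed over both subunits the count with 1 library left out is 3 to 33, and the large subunit median stays below the small subunit median throughout.

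Between brain and spleen libraries with the same replicate number the direction was the same and the size differed. Per the labels the number stands for an occasion, but the deposited columns number the spleen libraries differently, so that shared numbers mark a shared occasion is uncertain. Under number 1 the median log2 ratio of brain to spleen CPM was -0.55 over the large subunit and -0.37 over the small, and 73 of 78 genes were lower in brain. Under number 2 it was -0.27 and -0.19, and 67 of 78 were lower in brain. With the number as a block in edgeR, 32 genes were lower (24 large, 8 small), against 3.97% of all genes tested. Of the 21 above, 20 were among them, while MRPL38 was lost. Brain replicate 3 has no spleen library of its number, so the site estimate of this fit rested on numbers 1 and 2 alone. It left fewer residual degrees of freedom than the 3 of the main fit, so the larger count is not a stronger result. MRPS9, MRPS23 and MRPL51 were past the threshold in the blocked fit, with edgeR adjusted p of 0.0213, 0.0400 and 0.0371. Over all alternatives their adjusted p ran between 0.0108 and 0.288, between 0.000812 and 0.269, and between 0.0345 and 0.640. With the mouse share of each library as a covariate, which left 2 residual degrees of freedom, 0 of the 78 genes were called, and 0.0539% of all genes tested were called lower. At an unadjusted p below 0.05 in that fit, 41 of the 78 were lower, against 6.11% of all genes tested, and 0 were higher, against 7.23%. The medians were -0.56 in the large subunit and -0.37 in the small. Both spleen libraries held a higher mouse share than any brain library, so this fit cannot tell mouse share from site.

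Some values share reads with other annotated genes. MRPL12 shares 701 exon bases with an unnamed protein-coding gene on its strand, MRPL30 shares 564, MRPS5 shares 3201, MRPL28 shares 223 with PGAP6 and MRPS6 shares 265 with SLC5A3. Among the lower genes MRPL38 shares 1373 bases and MRPL2 shares 633 with unnamed protein-coding genes on their strands. Further genes overlap others on their strand, among them MRPL46 (724 bases) and MRPS24 (606, with URGCP-MRPS24). The values of all genes with a partner on their own strand are uncertain. The strand setting of the counting is not given in the sources used here, so those with antisense partners are uncertain too. The 78 pseudogenes of the same name pattern held 3621 counts in all, of which 2344 fell on MRPS31P5 and 956 on MRPS31P4, so the value of MRPS31 is uncertain as well.

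At the transcript level the leading transcript of a gene held a median of 70.4% of its TPM, and it was annotated as protein coding in 71 of the 78 genes. MRPL40 was an exception. Its most abundant transcript has no defined coding sequence and measured 16.0, 18.4 and 19.7 TPM in brain, against 37.0 and 34.6 TPM in spleen. Its only protein-coding transcript measured 8.62, 8.50 and 9.01 TPM in brain, against 13.9 and 12.1 TPM in spleen. Both transcripts were lower in every brain library than in either spleen library. In MRPS11 the leading transcript retains an intron and measured 20.6, 22.6 and 22.3 TPM in brain, against 34.5 and 32.9 TPM in spleen. Taking only transcripts annotated as protein coding, the median log2 ratio of mean TPM (brain over spleen) was -0.40 over the large subunit and -0.28 over the small, with 71 of 78 genes below 0. MRPL38 and MRPS30 alone had a leading transcript whose share differed by at least 10 percentage points between the group means without overlap. For MRPS30 it was 73.3, 65.0 and 71.8% in brain, against 87.1 and 74.0% in spleen, and for MRPL38 it was 47.5, 34.6 and 38.9% in brain, against 52.8 and 48.2% in spleen. These shares are model estimates and were not tested.

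The shift ran with transcript composition. Genes with a higher GC content and a shorter canonical transcript had lower fold changes, with Spearman correlations across the 78 genes of -0.45 for GC and 0.41 for length, against -0.20 and 0.21 over 12821 genes with log2 CPM above 1. Within the large subunit they were -0.48 and 0.41, and within the small subunit -0.29 and 0.23. GC and length were taken from the canonical transcript, which was the leading one by TPM in only 55 of the 78 genes. Genes called lower had a median GC of 54.6% and a median length of 1016 bases, against 46.4% and 1458 bases for those not past the threshold. The large subunit was itself richer in GC (median 50.8%) and shorter (1175 bases) than the small (46.6% and 1458 bases). With GC and length trends of each library taken out as offsets, an alternative chosen after seeing the data, 23 genes were lower (16 large, 7 small), against 4.71% of all genes tested, and 1 was higher. Of the 21, 16 were among the 23, and the medians were -0.29 in the large subunit and -0.21 in the small. MRPS30 was the higher one, at 0.33 on the log2 scale (edgeR adjusted p = 0.0416; 0.0416 to 0.655 over all alternatives, and 0.0636 with the block added), and MRPS26 was no longer past the threshold (0.161; 0.00925 to 0.267 over all alternatives).

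**Figure D4:**
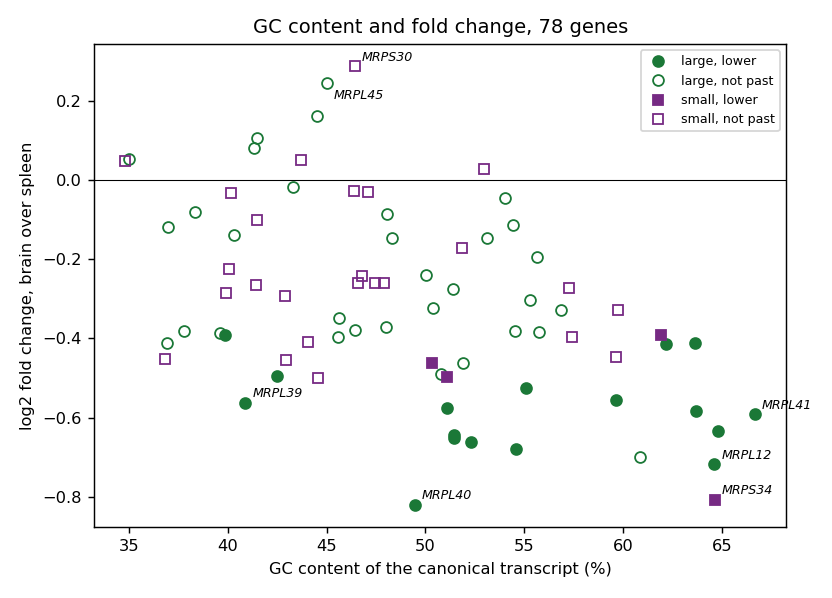
Log2 fold change (brain over spleen) against GC content of the canonical transcript for the 78 genes, by subunit, with genes past the threshold filled. Genes lower in brain had a higher median GC (54.6%, against 46.4% for the others), with a Spearman correlation of -0.45. The ranges overlapped widely (39.9 to 66.7%, against 34.8 to 60.9%).

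Other parts of the mitochondrial translation system were read for comparison, against the 3.50% of all genes tested that were lower and the 6.01% that were higher. Of 5 further proteins found in the mitochondrial ribosome under other names, 1 was lower and 0 higher. All 5 estimates were negative, with a median log2 fold change of -0.07, against -0.34 for the 78 genes. The lower one, AURKAIP1, measured 74.7, 70.6 and 76.6 CPM in brain, against 138.3 and 98.7 CPM in spleen (log2 fold change -0.68, edgeR adjusted p = 0.0198). Of 17 genes for mitochondrial translation factors and related proteins, including LRPPRC, SLIRP and OXA1L, 4 were lower and 0 higher (median -0.12). Among them TUFM, the elongation factor that delivers tRNAs, measured 340.1, 348.6 and 377.1 CPM in brain, against 586.7 and 469.4 CPM in spleen (log2 fold change -0.57, edgeR adjusted p = 0.0214), and MTIF2, an initiation factor, was lower by a log2 of -0.44 (edgeR adjusted p = 0.0206). Of 26 assembly factors, 1 was lower and 1 higher (3.85% each, near the share of all genes; median -0.23). The higher one, the GTPase NOA1, averaged 51.1 ± 1.82 CPM in brain and 35.8 ± 0.863 CPM in spleen (SD, n = 3 and 2) (log2 fold change 0.51, edgeR adjusted p = 0.0137), and the lower one was GTPBP6 (-0.38, adjusted p = 0.0422).

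The further lists were mixed, set against the same 3.50% lower and 6.01% higher. Complex I genes were taken by symbol (NDUF with A, B, C, S or V plus a number), which need not match the complex exactly. Of these 37 genes, 9 (24.3%) were lower and 0 higher. Their median was -0.44 (-0.20 when spleen replicate 1 was left out, -0.60 when spleen replicate 2 was). NDUFS7 and NDUFA12 had the smallest p (log2 fold changes -0.65 and -0.54). Mitochondrial aminoacyl tRNA synthetases had 2 of 17 (11.8%) lower, CARS2 and SARS2 (log2 fold changes -0.49 and -0.45), and a median of -0.10. General markers of mitochondrial content had 2 of 16 (12.5%) lower, the import proteins TOMM40 and TIMM50 (log2 fold changes -0.67 and -0.40), with a median of -0.18. Of 12 genes for mitochondrial transcription and biogenesis 1 (8.33%) was lower, the coactivator PPARGC1B (log2 fold change -0.56, edgeR adjusted p = 0.0141), and neither mitochondrial rRNA was past the threshold. Of the 13 protein-coding genes of the mitochondrial genome, 3 (23.1%) were lower and 0 higher, and the median of -0.11 changed sign to 0.06 without spleen replicate 1. Among them MT-ND2 and MT-ND3 had the smallest p (log2 fold changes -1.002 and -0.56); their counts can include nuclear copies. Cytosolic ribosomal proteins did not share the shift: 1 of 82 (1.22%) was lower (RPS27L, log2 fold change -0.58) and 1 (1.22%) higher (RPL23A, 0.46), and their median was 0.16. Leaving out spleen replicate 1 gave a median of 0.42 for these genes, and leaving out spleen replicate 2 gave -0.07.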

How the data were processed

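Per the labels' protocols, RNA was made into stranded poly(A) libraries after Ficoll purification, DNase treatment and snap freezing. Builds GRCh38 and GRCm38 are listed in the submitters' processing notes, as are kallisto 0.42.4, cutadapt 1.5, bcl2fastq 1.8.4 and DESeq2. Per the file headers, the authors' transcript tables hold kallisto estimated counts and TPM, and the deposited gene table holds estimated counts as whole numbers. A deposited table of log2 (rlog) values by the authors was used as an alternative. Each gene table has 1 further column that matched no label and was left aside.

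Symbols and coordinates came from GENCODE 44, which matched 56322 identifiers (86.4%). TPM was rescaled over human transcripts only to the sum that TPM is defined by, with MRPL22 understated because its matched transcripts held 0.711 of the deposited count. Counts were tested with edgeR 4.0.16 (R 4.3.3, quasi-likelihood, filterByExpr, TMM) on all 5 libraries with origin site as the only term, and p-values were adjusted over 20419 genes by the Benjamini-Hochberg method. The fit had 3 residual degrees of freedom. CPM used TMM-scaled library sizes. In simulated counts for 19854 genes, 88% of genes set at a log2 change of -1 and 26% of those at -0.5 were called, and 0.0967% of unchanged ones. There 19654 genes were unchanged, while in the data 714 genes were called lower and 1228 higher. The simulated shares therefore do not carry over to these data. Alternatives used DESeq2 1.42.0 and limma 3.58.1.

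The labels' protocols give the replicate numbers to the occasions, and a fit with the number as a block was run for that reason. Brain replicate 3, alone under its number, did not enter the site estimate of that fit. Same-numbered libraries had deviation correlations of -0.0251 and 0.146, and the deposited column names number the spleen libraries differently, so the pairing is uncertain. The p-values cover the spread between pools made on separate occasions, not between animals.

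The members, the lists and the rule for naming genes were chosen with earlier results of these data known. The genes named in each subunit were the 6 with the smallest p, the 3 highest and the 2 lowest log2 fold changes and the 3 highest mean TPM, and outside the members up to 2 called genes of each list. Names outside this rule were chosen after their values were seen. Promoter sequences are from RefSeq, searched for motif cores by exact match.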

Additional observations from a re-analysis of the deposited data

How the results depend on the processing

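The count of 21 genes lower in brain was 39 with no filter on low counts, 32 with the replicate block, and 0 with mouse share as a covariate (edgeR; 41 at an unadjusted p below 0.05, against 6.11% of all genes), and it ranged between 3 and 33 over the fits that leave out 1 library. It lay between 21 and 31 under the other alternatives. The count of 0 higher was 1 with GC and length offsets. The large subunit median was -0.56 with mouse share, -0.55 within number 1, and -0.52 to -0.22 without 1 library, while the small subunit median was -0.41 to -0.14 without 1 library. The difference between the medians, -0.12, was -0.20 with mouse share, -0.18 within number 1 and -0.14 to -0.0717 without 1 library. The brain minus spleen difference of the large to small ratio, -0.17, was -0.0941 from summed CPM, -0.0224 from median TPM, -0.114 without MRPL55 and -0.25 to -0.0868 without 1 library. These ratios without 1 library or MRPL55, and the GC and length offsets, were chosen after seeing the data. The cause of these changes was not tested.

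Among named genes the sign changed in 6, none of them past the threshold. MRPL30 was -0.0335 with mouse share and -0.0608 to 0.28 over the fits leaving out 1 library, and MRPL45 was -0.0214 with mouse share. MRPS15 was -0.0024 with the replicate block, -0.109 with mouse share and -0.12 to 0.18 without 1 library. MRPS36 was -0.0068 with GC and length offsets, -0.0353 with those offsets and the block, and -0.0008 to 0.13 without 1 library. MRPS5 was -0.053 with mouse share, -0.022 with offsets and block, and -0.0073 to 0.098 without 1 library. MRPS6, at -0.26 with all libraries, was -0.51 to 0.0364 without 1 library. Of the named values under alternatives, 292 kept their direction and side of the threshold, 41 lost and 20 gained the threshold, and 15 changed sign. With 3 and 2 libraries, 26% of genes simulated at a log2 of -0.5 were called. In the simulation far fewer genes changed than were called here, so that share does not carry over. A gene not past the threshold is not shown to be unchanged.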
